A study of Mus musculus with 24 samples.

Results

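The 9 genes Cxcr4, Itga4, Itga5, Itga6, Itgb1, Itgb2, Vcam1, Cd44 and Selplg encode receptors and adhesion molecules through which blood-forming cells home to the bone marrow and are held there. They were taken by symbol from 18194 genes with a single symbol on a mouse expression array, with all of their 27 probe sets out of 34958 that carry a single symbol. A filter that asked for at least 2 arrays at or above 4.64, the log2 median of all values, left 18 of the 27 probe sets and all 9 genes. For 6 of the genes the array holds several probe sets, and the tested probe set with the highest mean stands for the gene unless another is named.

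RNA was measured in haematopoietic stem cells (HSC) and myeloid progenitors (MP) of both genotypes and in wildtype B cell progenitors, all of them sorted marrow cells of 129ola mice that were 8 to 12 weeks old, with 35000 to 100000 cells behind an array. The hypomorph mice were Dnmt1-/chip, which joins an inactive allele of the maintenance DNA methyltransferase to the chip allele of lower activity, and the wildtype mice were Dnmt1+/+. There were 2 arrays of wildtype HSC, 3 of hypomorph HSC, 3 of wildtype MP, 3 of hypomorph MP and 2 of wildtype B progenitors. The labels name no promoter or Cre that would limit the change to the sorted cells, and the surface markers used for sorting are not given in the sources used here. Nothing in them states that replicate arrays are different mice. The p-values therefore speak only of array-to-array spread, which may be technical. Hypomorph B progenitors were not analysed here.

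Stem and progenitor cells migrate toward the chemokine Cxcl12, which marrow stromal cells release and which the receptor Cxcr4 reads. Rolling along the vessel wall depends on selectins that bind sugar-coated mucins such as the product of Selplg, and on Cd44, which binds hyaluronan. Firm hold is the work of integrins, paired α and β chains at the cell surface: α4 with β1 binds Vcam1 and fibronectin, α5 with β1 binds fibronectin, α6 with β1 binds laminin, and β2 with its own α chains binds the Icam family. Vcam1 is best known as the ligand that stromal, endothelial and macrophage cells present to the α4β1 integrin.

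Vcam1 was the member with the largest difference between genotypes in these cells: it was 4.48-fold higher in hypomorph than in wildtype MP. That call was made on 1448162_at alone among its tested probe sets. In HSC, Cxcr4 was 2.37-fold and Itgb2 2.06-fold higher in the hypomorph, although both calls depended on single arrays. Between cell types, Cxcr4 was highest and Selplg lowest in B progenitors. Cxcr4, Itgb1, Vcam1 and Cd44 were called higher in wildtype MP than in wildtype HSC. The calls of Cxcr4 and Itgb1 there depended on single arrays. Those of Vcam1 and Cd44 were made on 1448162_at and 1434376_at alone among single probe sets. The values are log2 intensities after RMA, a difference is a log2 fold change, and a gene is called when the p-value of limma, adjusted by Benjamini and Hochberg over 12765 genes, is under 0.05. Levels are compared only within a probe set, never between genes.

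**Figure D1:**
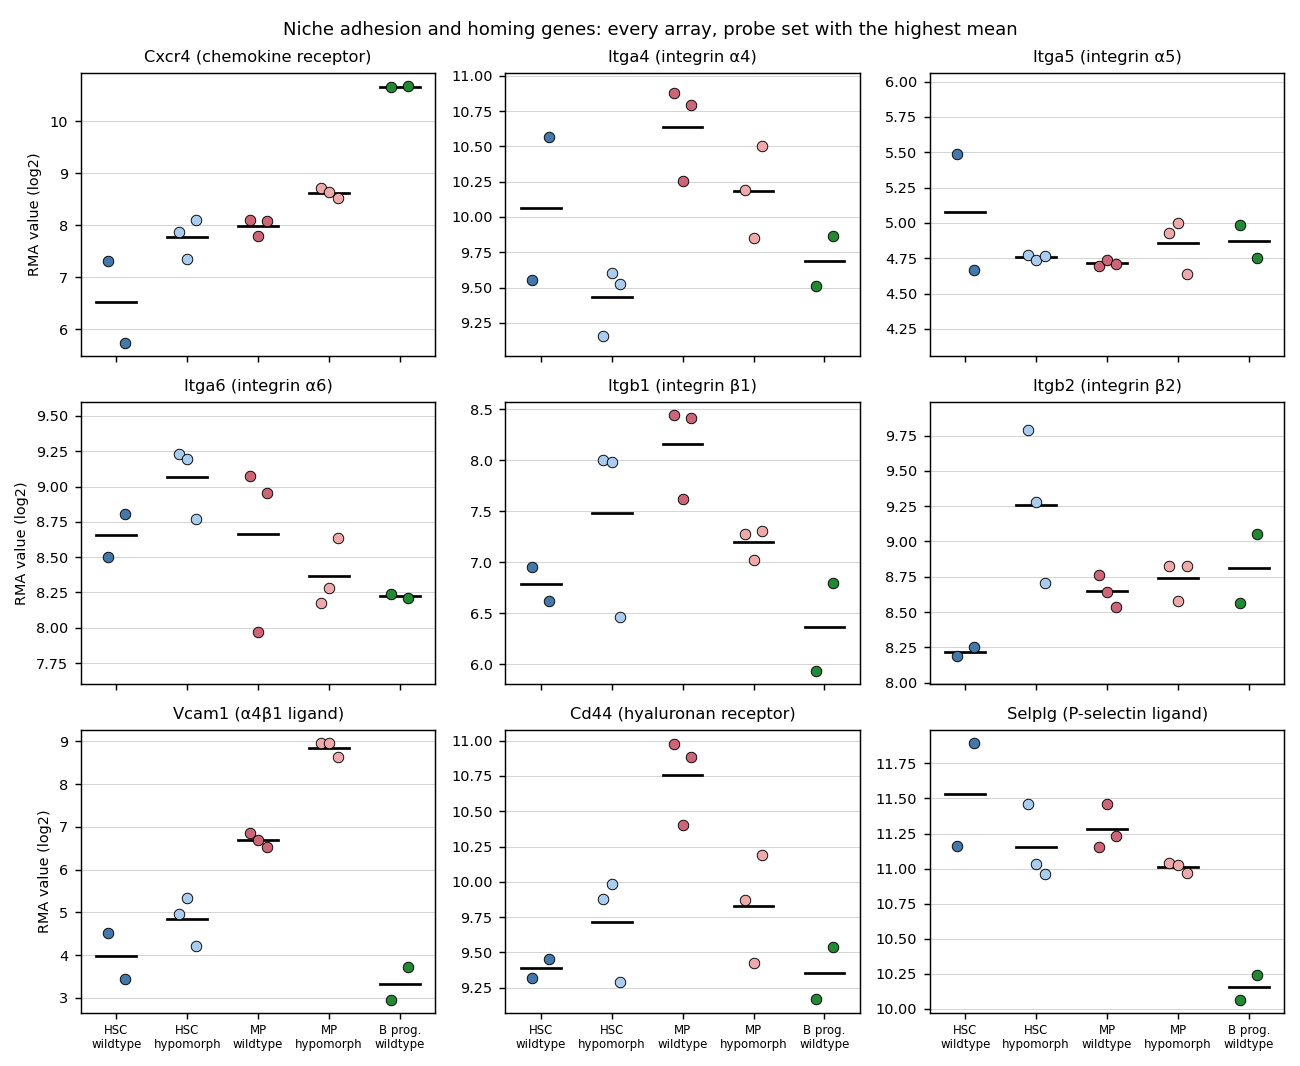
Log2 RMA level (vertical axis, with its own range in each panel) of the 9 genes in the 13 arrays, by cell type and genotype. Each point is 1 array and each bar the mean of its group; the 3 hypomorph MP arrays of Vcam1 lie between 8.64 and 8.96, above the wildtype MP arrays at 6.52 to 6.86, and the B progenitor arrays of Cxcr4, at 10.66 and 10.68, lie above all others.

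As a check of the labels, Dnmt1 was 6.75-fold lower in hypomorph HSC (log2 fold change -2.75, SE 0.24, adjusted p = 2.85e-05) and 10.1-fold lower in hypomorph MP (log2 fold change -3.34, SE 0.22, adjusted p = 7.28e-06), with no overlap of arrays. The mean level of 9 tested B lineage markers was 11.27 to 11.28 in B progenitors and 4.53 to 5.11 elsewhere, that of 9 myeloid progenitor markers was 11.70 to 11.97 in MP and at most 8.99 elsewhere, and that of 11 stem cell markers was 9.27 to 9.40 in wildtype HSC, 8.48 to 8.76 in hypomorph HSC and at most 6.92 elsewhere. Other marker lists moved with genotype. In hypomorph HSC, 6 of 7 mast cell and basophil markers and 9 of 14 replication markers were called higher, with mean levels of 6.88 to 7.86 against 4.36 to 4.76 and of 10.16 to 10.62 against 8.99 to 9.15, and 4 of 11 stem cell markers were called lower and 1 higher. In the same arrays 3 of 8 erythroid markers (mean levels of 7.89 to 8.25 against 7.11 to 7.24) and 2 of 9 myeloid progenitor markers (8.67 to 8.99 against 7.73 to 8.09) were called higher, and 2 of 9 B progenitor and 2 of 7 stromal and endothelial markers lower. Over all genes, limma called 5.37% higher and 5.44% lower in hypomorph HSC. In these bulk samples, fewer cells of a type and less RNA per cell cannot be told apart.

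The genotypes differ in the enzyme that copies methylation at CG sites, so the start regions of members are shown with their CG sites. RefSeq's table for GRCm38.p6 gives 300 bases, from 250 before to 50 after the start, for 5 of the 9 genes (Cxcr4, Itga4, Itga5, Itgb1 and Cd44). Printed here are Cxcr4 at chr1:128592250-128592549 (minus strand), called higher in hypomorph HSC, and Itgb1 at chr8:128685404-128685703 (plus strand) and Cd44 at chr2:102901616-102901915 (minus strand), whose levels ran closest together over the arrays. Each is written 5′ to 3′ on the strand of its gene, with every CG in capitals.
Cxcr4: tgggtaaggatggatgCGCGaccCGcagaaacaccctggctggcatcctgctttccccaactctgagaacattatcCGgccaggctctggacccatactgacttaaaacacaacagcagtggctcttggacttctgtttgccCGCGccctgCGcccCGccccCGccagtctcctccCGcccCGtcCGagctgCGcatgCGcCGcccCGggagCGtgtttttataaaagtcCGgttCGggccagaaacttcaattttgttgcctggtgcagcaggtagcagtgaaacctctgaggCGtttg
Itgb1: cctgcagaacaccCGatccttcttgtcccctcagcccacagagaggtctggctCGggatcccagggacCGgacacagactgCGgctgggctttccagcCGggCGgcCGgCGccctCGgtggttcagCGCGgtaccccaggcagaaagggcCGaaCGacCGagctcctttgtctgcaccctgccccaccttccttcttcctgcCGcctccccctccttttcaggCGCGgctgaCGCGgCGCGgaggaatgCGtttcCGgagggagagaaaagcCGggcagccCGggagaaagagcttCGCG
Cd44: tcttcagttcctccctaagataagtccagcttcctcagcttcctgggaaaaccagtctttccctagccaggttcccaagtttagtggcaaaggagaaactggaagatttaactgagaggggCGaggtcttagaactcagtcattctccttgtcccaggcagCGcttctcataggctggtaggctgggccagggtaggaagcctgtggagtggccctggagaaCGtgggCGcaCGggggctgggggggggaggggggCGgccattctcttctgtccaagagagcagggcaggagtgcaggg
The motif searched was CG, which reads the same on both strands. It occurs 20 times in the Cxcr4 region, 27 times in that of Itgb1, 13 times in that of Itga5, 10 times in that of Itga4 and 6 times in that of Cd44. The median over 32851 promoters of this length is 7, and 94.6% hold at least 1. As many as in Cxcr4 are held by 26.5% of them, as many as in Itgb1 by 15.5%, and as many as in Cd44 by 56.4%. Methylation was not analysed here, so these counts describe the sequences only.

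Cxcr4, the chemokine receptor, stood at 7.32 and 5.73 in the wildtype HSC arrays, at 7.87, 7.35 and 8.09 in hypomorph HSC, at 8.09, 7.80 and 8.08 in wildtype MP, at 8.72, 8.64 and 8.52 in hypomorph MP, and at 10.66 and 10.68 in B progenitors. The order of means was B progenitors, hypomorph MP, wildtype MP, hypomorph HSC and wildtype HSC, and only wildtype MP and hypomorph HSC overlapped as neighbours. The wildtype HSC arrays lay far apart, and the lowest hypomorph HSC array, at 7.35, barely cleared the higher of them, at 7.32. The hypomorph difference in HSC was 1.24 (SE 0.36, adjusted p = 0.040, higher in 3 of 3 arrays than in either wildtype array). It fell to 0.45 (adjusted p = 0.495) without wildtype array 2, and the call was also lost without hypomorph array 1 (1.19, adjusted p = 0.068) or 3 (1.08, adjusted p = 0.086), in the normalization of the HSC and MP arrays alone (1.33, adjusted p = 0.054) and with array weights (0.88, adjusted p = 0.091). In MP the hypomorph arrays were all above the wildtype arrays, with a difference of 0.64 (SE 0.32, adjusted p = 0.362). It was not called, except with array weights (adjusted p = 0.026). The effects in HSC and MP differed by 0.61 (SE 0.48, adjusted p = 0.462), by 1.40 (adjusted p = 0.030) without wildtype HSC array 1 and by -0.18 without wildtype HSC array 2. The mast cell and basophil, replication, erythroid and myeloid progenitor markers counted above were called higher in the same HSC arrays, and their part in the Cxcr4 difference was not tested.

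Among cell types of the wildtype, Cxcr4 rose 17.7-fold from HSC to B progenitors (4.14, SE 0.39, adjusted p = 1.48e-06; 3.35 without wildtype HSC array 2 and 4.93 without array 1) and 6.41-fold from MP to B progenitors (2.68, SE 0.36, adjusted p = 4.44e-05). MP exceeded HSC by 1.46 (SE 0.36, adjusted p = 0.0069) in the wildtype, by 0.67 (adjusted p = 0.120) without wildtype HSC array 2 and by 2.25 (adjusted p = 1.62e-04) without array 1. In the hypomorph the same cell type difference was 0.86 (SE 0.32, adjusted p = 0.111) and was not called, except with array weights (adjusted p = 1.3e-04).

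Vcam1 was dim in HSC and B progenitors and bright in MP. Its probe set 1448162_at read 4.52 and 3.45 in wildtype HSC, 4.96, 5.34 and 4.20 in hypomorph HSC, 6.86, 6.69 and 6.52 in wildtype MP, 8.96, 8.96 and 8.64 in hypomorph MP, and 2.95 and 3.71 in wildtype B progenitors. Array medians were 4.56 to 4.74, so the wildtype HSC and B progenitor values lay below the middle of their arrays, and without detection calls it is not known whether they are above background. The order of means was hypomorph MP, wildtype MP, hypomorph HSC, wildtype HSC and B progenitors, and the last 3 overlapped as neighbours. Wildtype MP and hypomorph MP were separate from each other and from all the rest.

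The rise of Vcam1 in hypomorph MP was 2.16 (SE 0.32, 95% interval 1.47 to 2.85, adjusted p = 0.0055), with 3 of 3 hypomorph arrays above every wildtype array. It kept its call when each MP array was left out in turn, with values of 2.08 to 2.27. In HSC the difference was 0.85 (SE 0.36, adjusted p = 0.148), was not called, and had overlapping arrays. It passed the threshold without wildtype HSC array 1 (1.39, adjusted p = 0.037), without hypomorph HSC array 3 (1.17, adjusted p = 0.043) and with array weights (1.29, adjusted p = 0.029). The effects in HSC and MP differed by -1.31 (SE 0.48, adjusted p = 0.120), which was not called.

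Vcam1 was also the only member of the 9 called between MP and HSC in both genotypes, although the arrays of Cxcr4 did not overlap there either. MP exceeded HSC by 2.71 in the wildtype (SE 0.36, adjusted p = 9.63e-05) and by 4.02 in the hypomorph (SE 0.32, adjusted p = 1.90e-06), and B progenitors minus wildtype MP gave -3.36 (SE 0.36, adjusted p = 5.61e-06). These are differences of measured values with a dim side, so no fold is given for them. From wildtype HSC to B progenitors the difference was -0.65 (SE 0.39, adjusted p = 0.199), and -1.19 (adjusted p = 0.044) without wildtype HSC array 2. Macrophages carry Vcam1 in marrow, and of 11 listed macrophage symbols 4 were tested (Adgre1, Cd68, Csf1r and C1qa). Their mean levels were 7.40 to 7.53 in wildtype and 7.21 to 7.36 in hypomorph MP, with 0 called in limma. The symbols Emr1, Mrc1, C1qb, C1qc, Mertk, Cd5l and Vsig4 were not tested, and Csf1r is also among the myeloid progenitor markers. Of 12 stromal and endothelial markers 7 were tested, with mean levels of 5.26 to 5.38 and 5.34 to 5.42 and 0 called. The 7 tested markers of mature neutrophils had mean levels of 6.05 to 6.42 in wildtype and 6.69 to 7.82 in hypomorph MP. Their median difference was 1.67, again with 0 called. Of 7 mast cell and basophil markers 1 was called higher, with mean levels of 8.26 to 8.52 and 8.78 to 9.06. Stem cell markers went the other way, with mean levels of 6.51 to 6.92 in wildtype and 6.02 to 6.26 in hypomorph MP, a median difference of -0.84 and 1 of 11 called lower. The mean levels of replication markers were 10.48 to 10.59 and 10.11 to 10.38, with 0 of 14 called. Over all genes, limma called 0.337% higher and 0.251% lower in hypomorph MP. The part of these markers in the Vcam1 rise was not tested.

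Itga4 and Itgb1 encode the chains of the integrin that binds Vcam1. Itga4 (1436037_at) read 9.55 and 10.57 in wildtype HSC, 9.16, 9.60 and 9.53 in hypomorph HSC, 10.88, 10.25 and 10.79 in wildtype MP, 10.19, 9.85 and 10.50 in hypomorph MP, and 9.51 and 9.87 in B progenitors. Wildtype MP had the highest mean and hypomorph HSC the lowest, and all neighbours in the order overlapped. The hypomorph difference was -0.63 in HSC (SE 0.31, adjusted p = 0.218) and -0.46 in MP (SE 0.28, adjusted p = 0.450). Neither was called on all arrays, except that in MP with array weights (adjusted p = 0.019). Without wildtype HSC array 1 the HSC difference was -1.14 (adjusted p = 0.038), and without wildtype HSC array 2 wildtype MP exceeded wildtype HSC by 1.09 (adjusted p = 0.036) in place of 0.58 (adjusted p = 0.177). B progenitors were lower than wildtype MP by -0.95 (SE 0.31, adjusted p = 0.028), a call that was lost without MP array 1 or 3, without either B progenitor array, and as the mean of probe sets (-0.03, adjusted p = 0.936).

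Itgb1 (1426918_at), the common β chain, read 6.95 and 6.62 in wildtype HSC, 8.01, 7.98 and 6.47 in hypomorph HSC, 8.45, 7.62 and 8.42 in wildtype MP, 7.28, 7.02 and 7.30 in hypomorph MP, and 5.93 and 6.79 in B progenitors. Hypomorph HSC array 3 lay below both wildtype HSC arrays while the other hypomorph HSC arrays lay above them. The genotype difference in HSC was 0.70 (SE 0.42, adjusted p = 0.318), and 1.21 without hypomorph array 3 (adjusted p = 0.030). In MP all hypomorph arrays lay below all wildtype arrays, but the difference of -0.96 (SE 0.38, adjusted p = 0.276) was not called, except with array weights (-1.16, adjusted p = 0.0012). The effects in HSC and MP differed by 1.66 (SE 0.57, adjusted p = 0.10), and by 2.17 (adjusted p = 0.0088) without hypomorph HSC array 3.

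Wildtype MP exceeded wildtype HSC in Itgb1 by 1.38 (SE 0.42, adjusted p = 0.024), which was not called without either wildtype HSC array or without MP array 1 or 3 (1.21 to 1.54, adjusted p from 0.055 to 0.144). B progenitors were 3.48-fold below wildtype MP (-1.80, SE 0.42, adjusted p = 0.0041), and -1.37 without B progenitor array 1 (adjusted p = 0.083). In the hypomorph, MP and HSC differed by -0.28 (SE 0.38, adjusted p = 0.748) and their arrays overlapped.

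Itga5, the α chain of the fibronectin receptor, was close to the array medians in nearly all arrays. Its values ran from 4.69 to 4.74 in wildtype MP, from 4.73 to 4.77 in hypomorph HSC, from 4.63 to 5.0 in hypomorph MP and from 4.75 to 4.99 in B progenitors. The exception was wildtype HSC, with 5.49 in array 1 and 4.66 in array 2. No comparison of Itga5 was called among the 7 made with all arrays, and the largest was -0.46 (SE 0.31, adjusted p = 0.395) for the difference of the genotype effects. Without wildtype HSC array 2, wildtype MP were lower than HSC by -0.77 (adjusted p = 0.034).

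Itga6, the α chain of the laminin receptor, was 8.50 and 8.81 in wildtype HSC, 9.23, 9.20 and 8.77 in hypomorph HSC, 9.07, 7.97 and 8.95 in wildtype MP, 8.18, 8.28 and 8.64 in hypomorph MP, and 8.24 and 8.21 in B progenitors. Wildtype MP array 2 was the lowest of all 13 arrays, and the other wildtype MP arrays were among the higher ones. None of its 7 comparisons was called by limma on all arrays without array weights. With array weights, genotype in MP (adjusted p = 0.017), the difference of effects (adjusted p = 0.032) and hypomorph MP against HSC (adjusted p = 0.0017) were called. Hypomorph MP were below hypomorph HSC by -0.70 (SE 0.27, adjusted p = 0.124) with no overlap of arrays, and B progenitors were below wildtype MP by -0.44 (SE 0.30, adjusted p = 0.293), or -0.79 (adjusted p = 0.024) without wildtype MP array 2. Its other tested probe set, 1422444_at, was not called in the 7 comparisons either. It put wildtype MP below wildtype HSC by -0.82 with no overlap of arrays (adjusted p = 0.095), where 1422445_at gave 0.01. Its sign was also opposite for genotype in MP (0.17), the difference of effects (-0.08) and B progenitors against wildtype MP (0.27). The sign was the same for genotype in HSC (0.09), hypomorph MP against HSC (-0.74) and B progenitors against HSC (-0.55).

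Itgb2, the β chain of the leukocyte integrins, read 8.19 and 8.25 in wildtype HSC, 9.79, 9.28 and 8.71 in hypomorph HSC, 8.76, 8.64 and 8.54 in wildtype MP, 8.82, 8.58 and 8.82 in hypomorph MP, and 8.56 and 9.06 in B progenitors. Wildtype HSC were below all other arrays, and hypomorph HSC were the most spread out group. The rise in hypomorph HSC was 1.04 (SE 0.27, adjusted p = 0.028, 3 of 3 arrays above both wildtype arrays). The marker lists named beside Cxcr4 move with this difference too, and their part was not tested. The difference was 0.77 (adjusted p = 0.060) without hypomorph array 1, and the adjusted p was 0.080 to 0.139 without hypomorph array 2 or without either wildtype array. In MP the difference was 0.09 (95% interval -0.44 to 0.62, adjusted p = 0.880). The difference between the cell types' effects, 0.95 (SE 0.37, adjusted p = 0.139), was not called, except with array weights (adjusted p = 0.038). Without hypomorph HSC array 3 the difference of effects was 1.22 (adjusted p = 0.027), and hypomorph MP were below hypomorph HSC by -0.80 (adjusted p = 0.025) in place of -0.52 (adjusted p = 0.231).

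Cd44, the hyaluronan receptor, read 9.32 and 9.45 in wildtype HSC, 9.88, 9.98 and 9.29 in hypomorph HSC, 10.98, 10.41 and 10.89 in wildtype MP, 9.87, 9.43 and 10.19 in hypomorph MP, and 9.17 and 9.54 in B progenitors (1434376_at). Wildtype MP were above every other array, and the other 4 groups overlapped as neighbours. Wildtype MP exceeded wildtype HSC 2.58-fold (1.37, SE 0.28, adjusted p = 0.0024) and B progenitors 2.64-fold (B progenitors minus MP -1.40, SE 0.28, adjusted p = 0.0013). In the hypomorph, MP and HSC differed by 0.11 (95% interval -0.43 to 0.65, adjusted p = 0.864). On 1423760_at the same difference was 0.65 with no overlap of arrays (adjusted p = 0.133), and on 1452483_a_at it was 0.007 (adjusted p = 0.992).

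The hypomorph arrays of MP were all below the wildtype arrays in Cd44, by -0.93 (SE 0.25, 95% interval -1.47 to -0.39), yet with an adjusted p of 0.148 this was not called, except with array weights (-1.0, adjusted p = 7.69e-04). In HSC the difference was 0.33 (SE 0.28, adjusted p = 0.498). The difference of these effects was 1.26 (SE 0.38, adjusted p = 0.068) and was not called on all arrays. It passed the threshold without hypomorph HSC array 3 (1.47, adjusted p = 0.023) or without wildtype MP array 2 (1.43, adjusted p = 0.036). It also passed with array weights (1.56, adjusted p = 0.0054). The other tested probe sets did not repeat this difference of effects. On 1423760_at it had the opposite sign (-0.19, adjusted p = 0.795). On 1452483_a_at it was 0.37 (adjusted p = 0.475).

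Selplg, the mucin that carries selectin-binding sugars, was bright in all cells. It read 11.16 and 11.90 in wildtype HSC, 11.46, 11.03 and 10.96 in hypomorph HSC, 11.16, 11.46 and 11.23 in wildtype MP, 11.04, 11.02 and 10.97 in hypomorph MP, and 10.06 and 10.24 in B progenitors. B progenitors lay below all other arrays, and the HSC and MP groups overlapped as neighbours in the order of means. B progenitors were 2.59-fold below wildtype HSC (-1.37, SE 0.26, adjusted p = 7.18e-04) and 2.19-fold below wildtype MP (-1.13, SE 0.24, adjusted p = 0.0021). The genotype differences, -0.38 in HSC (SE 0.24, adjusted p = 0.346) and -0.27 in MP (SE 0.21, adjusted p = 0.560), were not called.

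Read as a group in HSC, 2 of the 9 members were called higher in the hypomorph and 0 lower, where limma called 5.37% of all genes higher and 5.44% lower. The members' median difference was 0.41 and that of all genes -0.11. Over all genes 686 were called higher and 694 lower, or 749 and 453 with each array centred on its median. In MP, 1 of 9 members was called higher and 0 lower, against 0.337% and 0.251% of all genes, with medians of -0.27 and -0.02. For the difference of the genotype effects 0 members were called by limma, against 3.27% of all genes higher and 2.37% lower (417 and 303 genes, or 485 and 173 after centring). Itgb1, Itgb2, Vcam1 and Cd44 had an unadjusted p under 0.05 there, that is 4 of 9 members beside 24.1% of all genes.

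**Figure D2:**
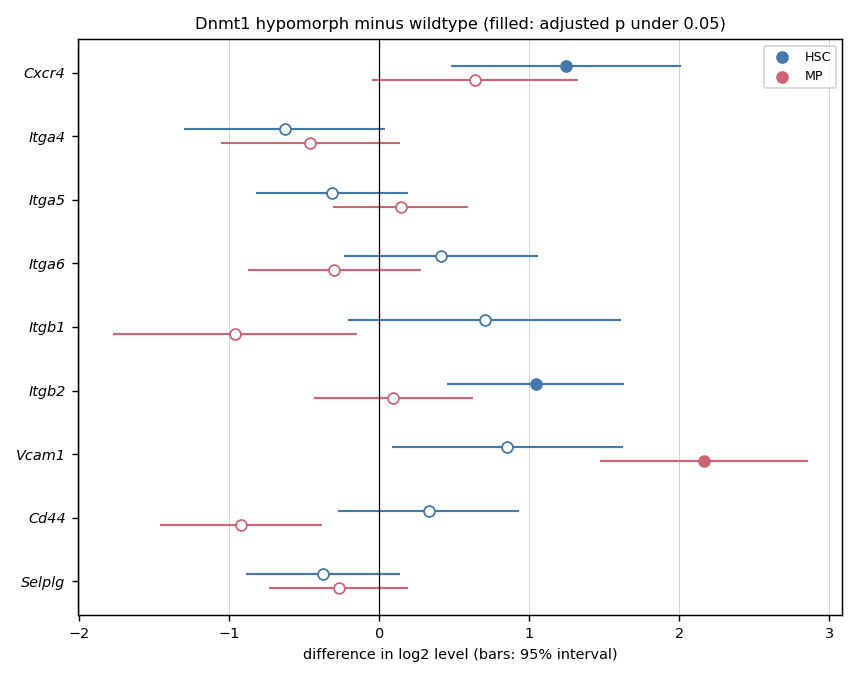
Hypomorph minus wildtype difference in log2 level (horizontal axis) for the 9 genes in HSC and MP, with 95% intervals as bars and filled points where the adjusted p is under 0.05. Cxcr4 (1.24) and Itgb2 (1.04) are filled in HSC and Vcam1 (2.16) in MP, and the points of Itgb1 and Cd44 lie on opposite sides of 0 in the cell types.

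Across cell types of the wildtype, 4 of 9 members were called higher in MP than in HSC and 0 lower, where 13.8% of all genes were called higher and 18.0% lower (1757 and 2299 genes, or 2064 and 1648 after centring); the medians were 0.58 for the members and -0.12 for all genes. In the hypomorph only Vcam1 among the 9 was called higher in MP than in HSC and 0 were lower, against 4.18% and 7.47% of all genes, with medians of 0.10 and -0.03. From HSC to B progenitors 1 member was called higher and 1 lower, against 14.9% and 30.2% of all genes, with medians of -0.37 and -0.25. From MP to B progenitors 1 was called higher and 5 lower (Itga4, Itgb1, Vcam1, Cd44 and Selplg), against 11.2% and 24.7%, with medians of -0.95 and -0.13. These comparisons share arrays: the wildtype HSC arrays enter 4 of the 7 comparisons and the wildtype MP arrays 4, so a high or low array moves several of them together.

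**Figure D3:**
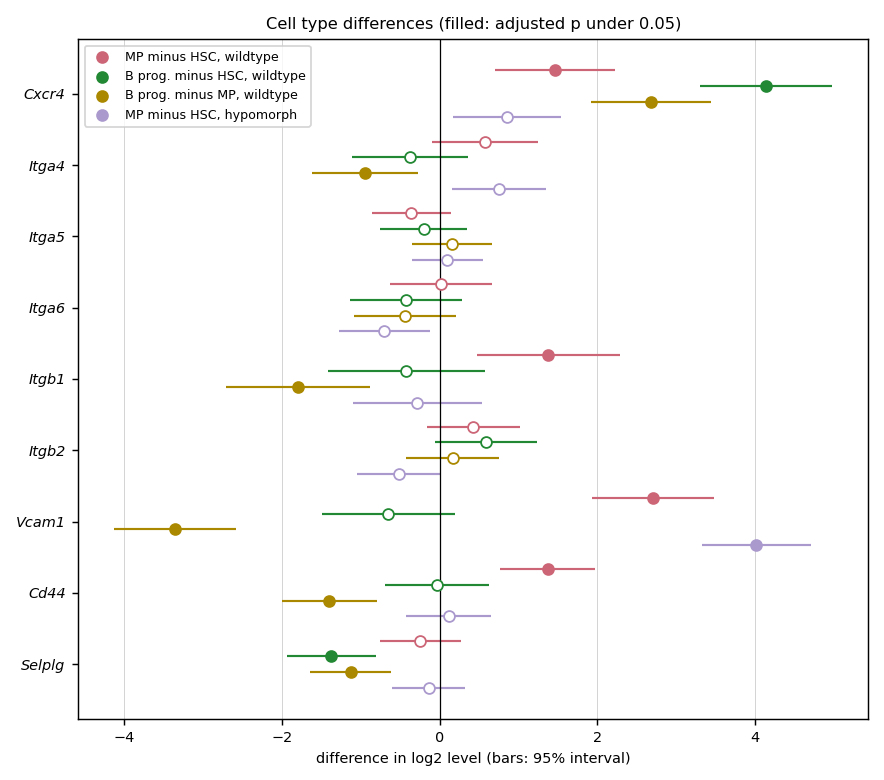
Differences in log2 level (horizontal axis) between cell types for the 9 genes, with 95% intervals as bars and filled points where the adjusted p is under 0.05. Cxcr4 is higher in B progenitors than in HSC (4.14) and MP (2.68), and Vcam1 is higher in MP than in HSC in the wildtype (2.71) and the hypomorph (4.02) and lower in B progenitors than in MP (-3.36).

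Probe sets of a gene share their target and are not replicates, and they did not always read alike. The call of Vcam1 in MP rests on 1448162_at: the other tested probe sets, 1415989_at and 1451314_a_at, differed by 0.31 (adjusted p = 0.421) and 0.29 (adjusted p = 0.576), and their group means stayed between 4.30 and 5.09 in all groups. The mean of the 3 includes 1448162_at and is no separate reading. It was called too, with smaller differences: 0.92 for genotype in MP (adjusted p = 0.011), 0.91 and 1.53 for MP against HSC in the wildtype and the hypomorph, and -1.07 for B progenitors against MP. Over the 13 arrays 1415989_at and 1451314_a_at correlated with 1448162_at at 0.54 and 0.25. Itgb1 read alike on its other tested probe set, 1452545_a_at, with a difference of -1.07 in MP (adjusted p = 0.209), 0.45 in HSC (adjusted p = 0.479) and a correlation of 0.80.

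For Cd44 the probe sets gave opposite signs in HSC. Where 1434376_at was higher in the hypomorph by 0.33, 1423760_at was lower by -0.54 (adjusted p = 0.250) and 1452483_a_at higher by 0.20 (adjusted p = 0.622). In MP they had the same sign, with -0.35 for 1423760_at (adjusted p = 0.528) and -0.17 for 1452483_a_at (adjusted p = 0.708). The call of MP over HSC in the wildtype was made on 1434376_at alone among single probe sets, with 0.46 for 1423760_at (adjusted p = 0.229) and 0.38 for 1452483_a_at (adjusted p = 0.217). The mean of the probe sets, which includes 1434376_at, gave 0.74 and was called in limma too. From HSC to B progenitors 1452483_a_at was called lower by -0.91 (adjusted p = 0.00687), where 1434376_at gave -0.03. All 3 tested Cd44 probe sets were called lower in B progenitors than in wildtype MP, by -1.40, -0.77 (adjusted p = 0.043) and -1.29 (adjusted p = 4.08e-04). Itga4 also gave opposite readings: 1456498_at was higher in B progenitors than in HSC by 1.37 (adjusted p = 0.044), whereas 1436037_at gave -0.37 (adjusted p = 0.405). In the comparison of B progenitors with wildtype MP, where 1436037_at was called lower by -0.95, 1456498_at was higher by 1.04 with no overlap of arrays (adjusted p = 0.104) and 1421194_at gave -0.18 (adjusted p = 0.612). Probe sets ending in _s_at, such as that of Itga5, can match transcripts of several genes. None of the Cd44 and Itga4 probe sets named above has that ending.

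**Figure D4:**
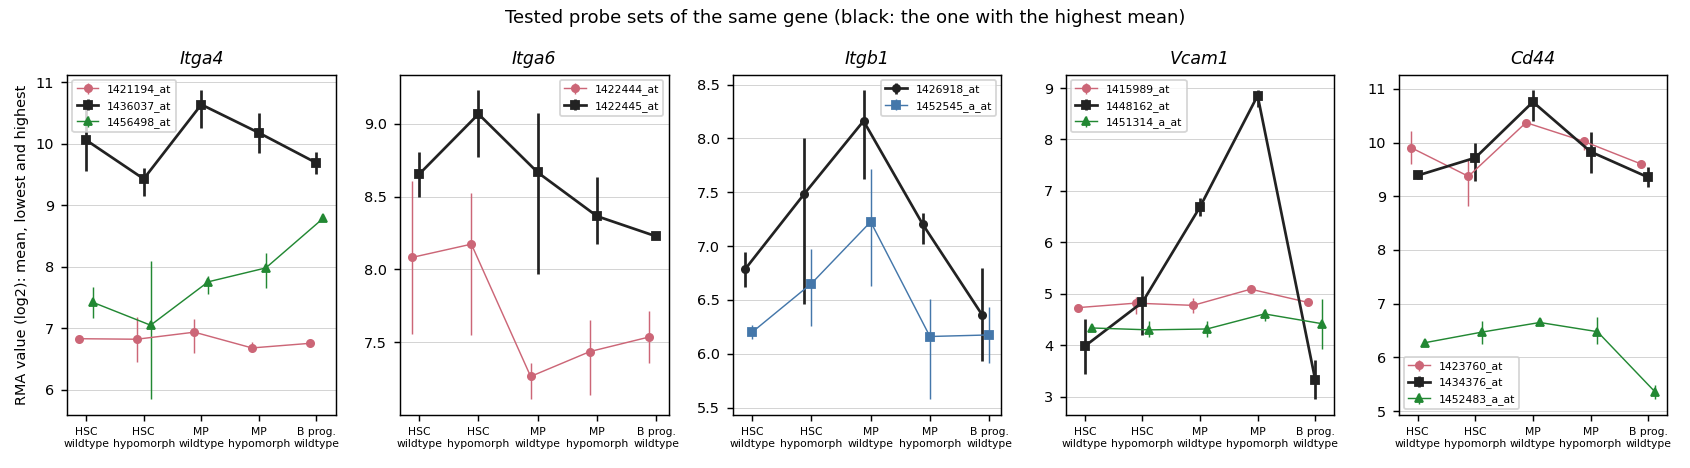
Mean log2 RMA level of each tested probe set (vertical axis, with its own range in each panel) in the 5 groups, for 5 of the genes with several tested probe sets, with bars from the lowest to the highest array and the probe set with the highest mean in black. For Vcam1 only 1448162_at climbs in MP, to 6.69 and 8.85, while the others stay between 4.30 and 5.09.

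Over the 13 arrays, the levels of Itgb1 and Cd44 ran together (Pearson r = 0.88), followed by Itga4 and Cd44 (0.70), and those of Cxcr4 and Selplg ran opposite (-0.93). These values describe arrays that share cell types and genotypes, and they are given with no p. The arrays that stood low for Itgb1 within their group, wildtype MP array 2 and hypomorph HSC array 3, were also the lowest of their group for Cd44. Over all tested genes, each of these arrays also deviated most from its group mean within its group. Their root mean square deviations were 0.29 and 0.40, so the shared low values are not particular to Itgb1 and Cd44. The genes whose levels were closest to each member were Kif18b and Zeb2 for Cxcr4 (both 0.96), Prss16 (0.98) and Dgat2 (0.97) for Vcam1, Cep350 and Ccdc93 for Itga4 (both 0.94), Zfp930 (0.98) and Cmtr2 (0.97) for Itgb1, and Cpe (0.95) and Kcnj6 (0.90) for Itga5. For Itga6 they were Msrb3 and Zfp36l2 (both 0.86), for Itgb2 Depdc1b (0.92) and Nbn (0.86), for Cd44 Fam91a1 (0.97) and Gid4 (0.94), and for Selplg Ptov1 (0.97) and Mettl17 (0.96).

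The wider pathway was followed in 130 further genes, of which 104 were tested. Unlike the members, these genes were not followed one by one under the alternative settings or without single arrays. In hypomorph HSC 4 of the 104 were called higher and 10 lower, beside 5.37% and 5.44% of all genes, with a median of -0.12 beside -0.11 for all genes. Among 12 tested integrin chains, Itgal rose 4.84-fold (2.27, SE 0.30, adjusted p = 4.59e-04). Itgal encodes αL, the partner of β2 in the integrin that binds Icam1. Itga9 fell by 1.01 (adjusted p = 0.043) and Itgb3 fell by 0.94 (adjusted p = 0.020) on the log2 scale. Icam1 itself fell by 1.42 (adjusted p = 0.0031), and the laminin chain Lama4 fell by 1.03 (adjusted p = 0.019), among 11 tested ligands. The hypomorph HSC mean of Lama4, 4.10, lay below 4.64, the median of all values, so the size of its fall is uncertain.

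Of 25 other homing and adhesion receptors, 1 rose and 5 fell in hypomorph HSC. The riser was Hmmr, a hyaluronan receptor that also acts on the mitotic spindle (1.10, adjusted p = 0.0055), and the largest falls were those of the guidance receptor Robo4 (-1.66, adjusted p = 0.011) and the sphingosine phosphate receptor S1pr3 (-1.52, adjusted p = 0.023). Downstream of chemokine receptors 1 of 21 genes was called, the G protein regulator Rgs2 (1.12, adjusted p = 0.015). Of 14 genes for selectin ligand synthesis 1 was called, the core 2 branching enzyme Gcnt1 (0.96, adjusted p = 0.0080). Of 21 genes for integrin activation 1 was called, the focal adhesion kinase relative Ptk2b (-0.76, adjusted p = 0.040). In MP, limma called 0 of the 104 between genotypes, where 0.337% of all genes were called higher and 0.251% lower, and 23 of the 104 had an unadjusted p under 0.05, beside 15% of all genes.

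In the wildtype cell types, 19 of the 104 were called higher and 23 lower in MP than in HSC, beside 13.8% and 18.0% of all genes. Itga1 (2.59, with a dim wildtype HSC mean of 3.58) and Itgal (2.55) led the integrin chains, with adjusted p of 2.40e-05 and 3.30e-05, and the fucosyltransferase Fut4 rose by 2.28 (adjusted p = 5.09e-04). Procr (-4.35) and Esam (-3.66), receptors known from stem cells, were lower, as were Icam1 (-2.11) and the G protein regulator Rgs1 (-2.67). Of the 25 homing and adhesion receptors 5 were called higher and 10 lower, with the largest rises in Prom1 (3.65) and S1pr3 (1.71). Downstream of chemokine receptors 3 genes were called higher, led by Rgs2 (0.96), and 2 lower. In the hypomorph, 6 were called higher and 11 lower in MP than in HSC, beside 4.18% and 7.47% of all genes.

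B progenitors had 17 of the 104 called higher and 44 lower than HSC, beside 14.9% and 30.2% of all genes, and 16 higher and 40 lower than MP, beside 11.2% and 24.7%. The regulators Rgs1 (-6.30) and Rgs18 (-5.68) were among those far below HSC, and so were the cytoskeletal linkers Zyx (-4.55) and Actn1 (-4.16). Of the 21 genes downstream of chemokine receptors, 6 were called higher and 5 lower than in HSC. The largest rises there were those of Rgs2 (2.65) and Pik3r5 (1.43). The ligand Angpt1 (-6.31) and the mucin Cd34 (-7.41) were lower too. Of the enzymes that build selectin ligands, the fucosyltransferase Fut7 (-3.32) and the tyrosine sulfotransferase Tpst2 (-3.19) were lower and the core 1 enzyme C1galt1 (3.92) was higher than in HSC. The chemokine receptor Ccr7 (2.43) was also higher. The B progenitor means of Cd34 (3.61), Rgs1 (4.38) and Rgs18 (4.47) and the HSC mean of Ccr7 (3.61) lay below 4.64, the median of all values, and are not known to be above background, so these differences are between measured values and their size is uncertain. All the values in these sentences had an adjusted p under 0.05.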

How the data were processed

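Affymetrix arrays were read from the deposited table, in which the authors give RMA values, per the submitters' processing notes; its version was not named in these notes. They are taken as log2 intensities because of their range, and every fold change in the deposited log2 values rests on that. Of its 24 columns, 13 hold the normalization used here and 11 a further one of the HSC and MP arrays, used as an alternative; 0 columns were left unused. Of 45101 probe sets, 34958 carried 1 symbol, 932 several and 9211 none in the platform annotation; 34754 were matched by Entrez identifier and 0 symbols changed.

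Genes with at least 2 arrays at or above 4.64 were kept (12765 genes, 22122 probe sets). One limma model (version 3.58.1 in R 4.3.3) of 5 groups, with 8 residual degrees of freedom, gave 7 comparisons, and the method was tested on simulated data. Probe sets were fitted in a model of their own, so their adjusted p-values run over 22122. Intervals are at 95%. The members and lists were chosen with earlier results of these data known. Named were all members, Dnmt1, up to 2 called members per direction of each list, and the 2 genes most correlated with each member. Same-numbered arrays did not deviate together: 6 of 23 pairs had a correlation over 0.1 (median -0.05), against 14 of 44 other pairs (median 0.03).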

Additional observations from a re-analysis of the deposited data

Results flagged for a closer look

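None of the 9 genes met a rule for a closer look, and groups of 2 or 3 arrays are too small for the test for single outlying arrays. Among the 104 further pathway genes, limma called a difference between the genotype effects in HSC and MP for 6, 4 higher and 2 lower, each given as the effect in HSC minus that in MP. That is a count near the rate over all genes, of which 3.27% were called higher and 2.37% lower. Itgal differed by 2.49 (SE 0.40, adjusted p = 0.0045), with 2.27 in HSC and -0.22 in MP. Hmmr differed by 1.27 (SE 0.28, adjusted p = 0.022), with 1.10 and -0.17. Rgs2 differed by 1.27 (SE 0.35, adjusted p = 0.0497), with 1.12 and -0.14. Gcnt1 differed by 1.12 (SE 0.27, adjusted p = 0.028), with 0.96 and -0.16. Jam2, a junctional adhesion molecule, differed by -1.76 (SE 0.38, adjusted p = 0.020), with -1.36 and 0.40. Its means in wildtype MP (3.85), hypomorph MP (4.26) and hypomorph HSC (4.59) lay below 4.64, the median of all values. They are not known to be above background, so the size of these Jam2 differences is uncertain. St3gal1, a sialyltransferase, differed by -1.18 (SE 0.31, adjusted p = 0.041), with -0.52 and 0.66, neither of which was called. Jam2 and St3gal1 were named after their values were seen. None of the 6 was followed under the alternative settings or without single arrays.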

How the results depend on the processing

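Of 920 member values under alternatives, 839 kept their direction and side of the threshold, 25 lost and 29 gained a call, and 27 changed sign, none of which was called. The 2 member calls in HSC became 1 in the other normalization, 1 under the replicate block and 1 with no filter (Itgb2 in each), 0 with only the arrays compared, and 0 to 3 leaving out arrays. Array weights gave 6 member calls in place of 1 for genotype in MP (Cxcr4, Itga4, Itga6, Itgb1, Vcam1 and Cd44). They gave 4 in place of 0 for the difference of effects (Itga6, Itgb1, Itgb2 and Cd44). For MP against HSC in the hypomorph they gave 6 in place of 1 (Cxcr4, Itga4, Itga6, Itgb1, Itgb2 and Vcam1). These weights were fitted gene by gene, gave hypomorph HSC array 2 a weight of 6.53 and wildtype MP array 3 one of 6.11, and raised the calls over all genes from 75 to 4270, from 720 to 3263 and from 1487 to 4500; the cause was not tested. Leaving out arrays gave 0 to 3 member calls for the difference of effects and 1 to 2 for MP against HSC in the hypomorph.

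Over all genes, the 1380 calls in HSC became 899 under the replicate block and 140 with only the arrays compared (the 75 in MP became 164), 692 without hypomorph HSC array 2 and 456 without wildtype HSC array 2. The MP calls became 38 to 183 without single arrays, those of the difference 376 under the block and 242 to 1447 without single arrays, the 4056 of MP against HSC in the wildtype 2547 without wildtype HSC array 2, and the 1487 in the hypomorph 973 without hypomorph HSC array 2. Labels share replicate numbers only; the block also ended the calls of Cxcr4 in HSC (1.19, adjusted p = 0.052) and of Itga4 between B progenitors and MP (-0.86, adjusted p = 0.061).

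Values that changed sign were Cd44 in HSC (-0.0027) and Itga4 from HSC to B progenitors (0.31) as the mean of probe sets, the differences of effects for Itga4 with array weights (0.075) and Selplg after centring (0.05), Itga6 from HSC to MP in the wildtype under the block (-0.032) and as the mean of probe sets (-0.40), Cd44 from HSC to MP in the hypomorph with array weights (-0.067), and Cd44 from HSC to B progenitors after centring (0.065). Leaving out single arrays spanned 0 for the difference of effects of Cxcr4 (-0.18 to 1.40), Itga4 (-0.68 to 0.34) and Selplg (-0.47 to 0.26), for genotype in HSC in Itga5 (-0.73 to 0.095), and for MP against HSC in the wildtype in Itga5 (-0.77 to 0.049), Itga6 (-0.19 to 0.36) and Selplg (-0.61 to 0.12). It did so in the hypomorph for Cd44 (-0.10 to 0.31) and Selplg (-0.24 to 0.014), from HSC to B progenitors for Itga4 (-0.88 to 0.13), Itga5 (-0.62 to 0.21), Itgb1 (-0.86 to 0.010) and Cd44 (-0.22 to 0.15), and from MP to B progenitors for Itgb2 (-0.083 to 0.41). The number of arrays, at most 3 in a group, limits what can be detected. The second normalization holds no B progenitor arrays, so it gives no value for those comparisons.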
